A study of Homo sapiens with 3 samples.

Results

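The dual-specificity phosphatase (DUSP) genes described here are DUSP1, DUSP2, DUSP4, DUSP5, DUSP6, DUSP7, DUSP8, DUSP10, DUSP14 and DUSP16. They were taken as every probe set that the platform annotation assigns to one of these 10 genes alone, which gave 22 probe sets of the 54613 non-control probe sets on the array, and 10 of the 19775 genes named there. SK-Mel-28, an established human melanoma line, had been stably transfected with the vector pSilencer 3.1-H1 neo, which transcribes a short hairpin RNA from the H1 promoter. On 1 array was RNA from cells with a scrambled hairpin, and on 2 arrays RNA from cells with a hairpin targeting MTf, melanotransferrin (gene symbol MELTF), labelled B1 and B2 and called siRNA array 1 and siRNA array 2 here. All 3 arrays were Affymetrix Human Genome U133 Plus 2.0 arrays, and the comparison asks which transcripts differ when MELTF is targeted. The labels do not say whether B1 and B2 are clones, pools or repeat cultures, so the p-values reflect the array-to-array spread alone, which could be technical. The scrambled array has no replicate, and the number of arrays limits the precision of every value below.

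Mitogen-activated protein kinases (MAPKs) are switched on by phosphorylation of a threonine and a tyrosine in their activation loop, and dual-specificity phosphatases remove both phosphates. Many of these phosphatases are transcribed in response to the kinases they switch off, so that they act as negative feedback, and their transcripts are often read as a record of MAPK output. In melanoma, where the ERK branch is commonly active, DUSP4 and DUSP6 are well-known members of that record. DUSP1, DUSP2, DUSP4 and DUSP5 are inducible nuclear enzymes, DUSP6 and DUSP7 act on ERK in the cytoplasm, DUSP8, DUSP10 and DUSP16 prefer the stress kinases JNK and p38, and DUSP14 is an atypical member without the usual kinase-binding domain.

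Signals are given below as the scrambled array against siRNA array 1 and siRNA array 2, in that order. The brightest probe set of MELTF, the targeted gene, read 32608 with the scrambled hairpin against 18968 and 18974 (limma adjusted p = 0.0699). The second brightest read 8284 against 10567 and 11199 and was higher on both. Of the other 2 past the filter, 1 was higher on both (546.4 against 693.7 and 665.7) and 1 lower (915.2 against 699.7 and 283.6). None of the 4 passed the threshold, and their mean differed by -0.26 on the log2 scale (limma adjusted p = 0.573). The median signal of all probe sets was 160.6 for the scrambled array, 174.3 for siRNA array 1 and 199.5 for siRNA array 2, and the GAPDH control had a 3'/5' ratio of 1.01 to 1.03. The 3 ribosomal RNA controls stood at a median of 4.01 times their scrambled signal on siRNA array 1 and 0.963 times on siRNA array 2. Of 8 melanocytic markers 7 were measured, with a summed signal of 289528 against 242062 and 265631. PMEL, MLANA, SOX10 and S100B read 13842 or more on all 3 arrays, and TYRP1 fell from 53204 to 5022 and 12370 (limma adjusted p = 0.0374). In their brightest probe sets TYR (19988 against 35193 and 37555, adjusted p = 0.0529) and MITF (52684 against 42992 and 34223, adjusted p = 0.236) did not pass. A second TYR probe set did pass and was higher (10796 against 24678 and 22086, limma adjusted p = 0.0383). The third TYR probe set differed by -0.11 on the log2 scale. Among 7 fibroblast markers 4 were measured, with a summed signal of 1783 against 5695 and 5957, and LUM was the one that rose (598.6 against 4850 and 4841, adjusted p = 0.00719). The other LUM probe set, which did not pass the filter, read 139.8 against 171.2 and 138.9. The leukocyte, epithelial and endothelial lists had 1 measured marker each, none past the threshold: LCP1 of 6 (1130 against 477.8 and 384.7, adjusted p = 0.0804), KRT18 of 5 (1308 against 2483 and 2149, adjusted p = 0.142) and PECAM1 of 4 (228.2 against 284.8 and 459.5, adjusted p = 0.487). PTPRC, CD14, EPCAM, CDH1, KRT14 and CDH5 of these lists were below 97.2, the highest signal of the bacterial trp control probe sets, on all 3 arrays, and CD3E, KRT5, KDR and VWF, though not past the filter, were above it on at least 1. The part of these markers in the DUSP results was not tested.

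Upstream sequences are shown for DUSP1, DUSP6 and DUSP10, and for DUSP8, which holds the same motif as DUSP1. RefSeq promoter windows (GRCh38.p14) were searched for 8 of the 10 members, in 9 windows because DUSP10 has 2 annotated starts. DUSP4 was left out of the search by choice, and DUSP5 had no window. Each sequence is the 250 bases before the annotated start, 5′ to 3′ on the strand of the gene. Capitals mark the cyclic AMP response element CRE (TGACGTCA), its shorter form (TGACG) and the E-box (CACGTG). All of those printed lie on the minus strand, at chr5:172771196-172771445 for DUSP1, chr12:89352502-89352751 for DUSP6, chr11:1572272-1572521 for DUSP8, and chr1:221742090-221742339 and chr1:221736901-221737150 for the 2 starts of DUSP10.
DUSP1: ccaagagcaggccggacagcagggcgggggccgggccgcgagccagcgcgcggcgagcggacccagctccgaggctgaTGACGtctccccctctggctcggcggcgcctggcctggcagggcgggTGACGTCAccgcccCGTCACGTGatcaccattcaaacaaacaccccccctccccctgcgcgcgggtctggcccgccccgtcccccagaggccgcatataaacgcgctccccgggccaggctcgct
DUSP6: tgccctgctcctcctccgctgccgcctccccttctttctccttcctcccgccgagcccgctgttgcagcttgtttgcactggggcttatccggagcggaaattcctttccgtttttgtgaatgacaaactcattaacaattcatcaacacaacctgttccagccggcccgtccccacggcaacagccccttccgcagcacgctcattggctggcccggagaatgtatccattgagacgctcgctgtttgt
DUSP8: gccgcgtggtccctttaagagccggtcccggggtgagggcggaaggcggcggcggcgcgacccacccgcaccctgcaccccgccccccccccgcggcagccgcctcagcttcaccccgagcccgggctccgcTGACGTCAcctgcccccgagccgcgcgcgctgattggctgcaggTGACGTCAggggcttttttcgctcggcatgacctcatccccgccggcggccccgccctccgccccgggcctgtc
DUSP10 start 1: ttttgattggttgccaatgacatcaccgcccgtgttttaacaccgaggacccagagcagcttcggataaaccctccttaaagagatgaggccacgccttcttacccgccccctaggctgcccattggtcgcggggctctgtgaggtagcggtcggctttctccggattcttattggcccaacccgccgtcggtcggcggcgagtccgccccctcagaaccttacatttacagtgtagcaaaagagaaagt
DUSP10 start 2: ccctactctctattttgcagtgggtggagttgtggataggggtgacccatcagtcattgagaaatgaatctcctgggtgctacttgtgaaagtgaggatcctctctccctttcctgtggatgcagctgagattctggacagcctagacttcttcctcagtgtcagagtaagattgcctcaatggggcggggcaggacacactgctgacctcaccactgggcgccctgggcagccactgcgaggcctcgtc

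Both strands of each window were searched, and TGACG lies within every CRE. A CRE was found in the windows of DUSP1 (from position -125) and DUSP8 (from -118 and from -74), and in 1.65% of all 35116 RefSeq windows of the same length. DUSP1 held a further TGACG from -172, and an E-box from -108 that overlaps a TGACG on the other strand. The short form was in 21.2% of all windows and the E-box, which DUSP2 held too (from -113), in 6.34%. The GC box (GGGCGG) was in 8 of the 9 member windows, all but that of DUSP6, and in 42.6% of all windows. None of the 9 member windows searched held AP-1 (TGANTCA, 6.57% of all windows), the ETS core (CCGGAA, 14.5%) or the CArG box (1.16%). These are letter matches in 1 short window and say nothing of binding.

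**Figure D1:**
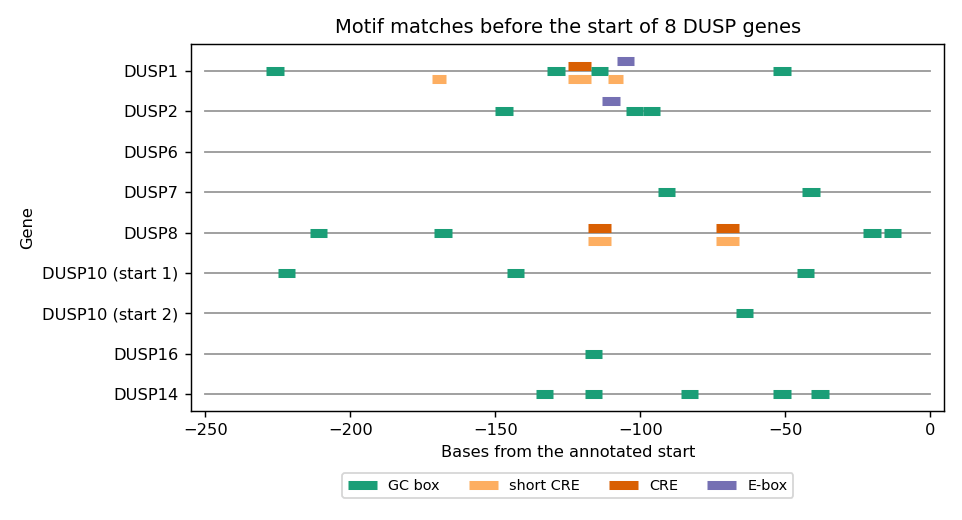
Position of motif matches in the 250 bases before each annotated start (x axis, bases from the start) for 8 DUSP genes (y axis; 2 starts for DUSP10). CRE matches are drawn in the DUSP1 and DUSP8 windows, and no match of any kind in that of DUSP6.

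Signals are scanner intensities on a linear scale as deposited, and differences are siRNA minus scrambled on the scale log2(signal + 47.4), which understates changes of dim probe sets. Of the 22 DUSP probe sets, 18 passed the filter on low signals (mean log2 value above the median of all probe sets) and were tested, representing 9 of the 10 genes. DUSP2 is the gene with no probe set past the filter. Levels of different probe sets cannot be set against each other, so each is compared only with itself across arrays.

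DUSP10 fell in the siRNA cells, and was the only one of the 9 tested DUSP genes to pass the threshold of 0.05 after adjustment over all 27306 probe sets tested. DUSP1, DUSP4, DUSP5 and DUSP6 read lower on both siRNA arrays in their brightest probe sets, at log2 differences of -0.998 to -0.61, without passing it. DUSP7, DUSP8, DUSP14 and DUSP16 differed by -0.35 to 0.12 on the log2 scale in their brightest probe sets. Of the 18 tested DUSP probe sets, 2 passed and were lower, both of DUSP10, and 0 passed and were higher. In the same limma fit 0.905% of all probe sets passed and were lower (247 of 27306). At an unadjusted p under 0.05, 9 DUSP probe sets were lower and 0 higher, where 7.77% and 12.4% of all probe sets were. The 9 lower probe sets belonged to DUSP1 (1), DUSP4 (3), DUSP6 (3) and DUSP10 (2).

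**Figure D2:**
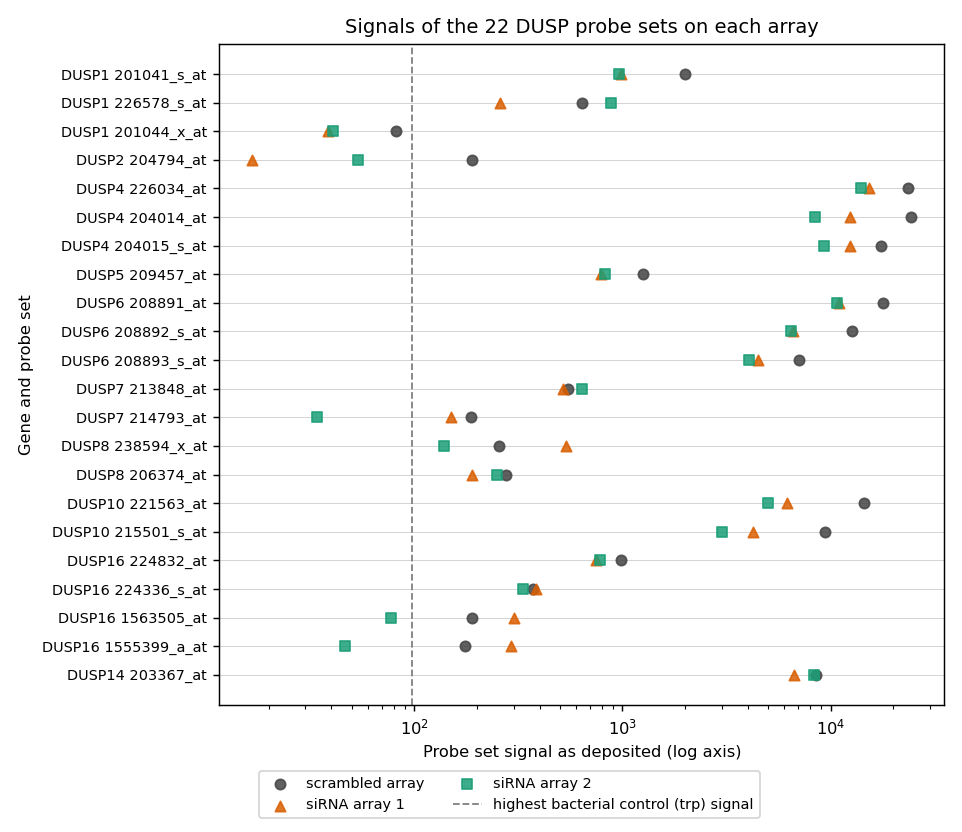
Deposited signal (x axis, log scale) of each of the 22 DUSP probe sets (y axis) on the scrambled array, siRNA array 1 and siRNA array 2; the dashed line is the highest bacterial trp control signal, 97.2. In DUSP2, DUSP4, DUSP5, DUSP6, DUSP10 and DUSP14 both siRNA points lie left of the scrambled point in every probe set.

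Both probe sets of DUSP10, the JNK and p38 phosphatase also known as MKP-5, fell. The brighter read 14412 on the scrambled array, then 6201 on siRNA array 1 and 4998 on siRNA array 2, that is 43.0% and 34.7% of the scrambled signal. The other read 9357 against 4231 and 3023, or 45.2% and 32.3%. Both siRNA arrays were thus more than 2-fold below the scrambled array in each probe set, and siRNA array 2 was the lower in both. In RNA from whole cultures, fewer expressing cells and less RNA per cell cannot be told apart. The log2 difference was -1.36 ± 0.22 (SE) for the brighter (limma adjusted p = 0.0370) and -1.38 ± 0.26 for the other (adjusted p = 0.0494). They were the 2 DUSP probe sets at least 2-fold lower on both siRNA arrays, against 1.83% of all probe sets. The limma call of the brighter DUSP10 probe set was lost without the filter (adjusted p = 0.138), with only probe sets above the 75th percentile (0.0656) and when the variance model had no trend (0.167). The range over its 9 tested alternatives was 0.00297 to 0.167. The call of the second was lost in those 3 and under quantile normalization (0.0699), a pseudocount of 100 (0.0519) and robust moderation (0.0526), with a range of 0.00756 to 0.182.

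The other stress kinase phosphatases, DUSP16 and DUSP8, did not pass the test. DUSP16, known as MKP-7, read 988.9 against 749.3 and 781.1 in the brightest of its probe sets, a log2 difference of -0.35 ± 0.28 (adjusted p = 0.537). Its second probe set read 371.7 against 385.0 and 332.8, so that the scrambled value lay between the siRNA values. The 2 dimmest DUSP16 probe sets parted the siRNA arrays, at 190.5 against 300.5 and 77.6 and at 175.9 against 293.0 and 46.3. DUSP8 did likewise in its brighter probe set, which read 255.0 against 532.9 and 139.4 (log2 difference 0.12 ± 0.65, adjusted p = 0.942). That difference was -0.047 with arrays centred on their medians and -0.095 under quantile normalization, so it has no settled direction. The other DUSP8 probe set read 275.3 against 189.6 and 250.6, a log2 difference of -0.28 ± 0.41 (adjusted p = 0.762). Whether DUSP10 differed from DUSP8 and DUSP16 was not tested.

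Among the inducible nuclear enzymes DUSP4, which dephosphorylates ERK and JNK, had 3 probe sets, all lower on both siRNA arrays. The brightest by mean read 23510 against 15245 and 13938, that is 64.8% and 59.3% of the scrambled signal. The second read 24456 against 12393 and 8367, and the third 17547 against 12409 and 9322. Their log2 differences were -0.69 ± 0.18 (adjusted p = 0.102), -1.26 ± 0.26 (adjusted p = 0.0583) and -0.70 ± 0.23 (adjusted p = 0.149), all short of the threshold. With arrays centred on their medians all 3 passed it, at adjusted p = 0.0214, 0.00315 and 0.0489. The ranges over the tested alternatives were 0.0214 to 0.282, 0.00315 to 0.202 and 0.0489 to 0.320.

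DUSP1, an immediate-early gene product that acts on p38, JNK and ERK, read 1991 against 987.3 and 958.9 in the brightest of its probe sets. Both siRNA arrays lay close together, at 49.6% and 48.2% of the scrambled signal, a log2 difference of -0.998 ± 0.26 (adjusted p = 0.0970). Its second probe set went against this on 1 array, at 637.2 against 257.6 and 878.5, with a log2 difference of -0.37 ± 0.60 (adjusted p = 0.789). The third lay below 97.2 on all 3 arrays. Among the alternatives the brightest probe set stayed short of the threshold in each of the 8 tested (adjusted p of 0.0526 to 0.207), and the mean over the tested DUSP1 probe sets differed by -0.68 (adjusted p = 0.274).

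DUSP5, an ERK-specific nuclear phosphatase with 1 probe set, read 1252 against 790.3 and 823.4, or 63.1% and 65.8% of the scrambled signal. The siRNA arrays lay close together and below the scrambled array, at a log2 difference of -0.61 ± 0.27 (adjusted p = 0.274). DUSP2, a nuclear phosphatase best known from lymphocytes, read 189.1 against 16.7 and 53.6. Both siRNA signals were within the range of the bacterial control (7.0 to 97.2), so with them raised to 97.2 its signal was at least 1.95-fold lower, without a test because the probe set did not pass the filter.

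Neither cytoplasmic ERK phosphatase passed the threshold. DUSP6, known as MKP-3, read 17938 against 10933 and 10788 where it was brightest, 12678 against 6590 and 6425 in the second and 7018 against 4482 and 4038 in the third. Across the 3 probe sets and both siRNA arrays the signal was 50.7% to 63.9% of the scrambled one, with the siRNA arrays within 0.15 of each other on the log2 scale. The log2 differences were -0.72 ± 0.19 (adjusted p = 0.0943), -0.96 ± 0.20 (adjusted p = 0.0612) and -0.72 ± 0.22 (adjusted p = 0.131). With arrays centred the first and second passed (adjusted p = 0.0263 and 0.0156), and over the tested alternatives the first ranged from 0.0263 to 0.265 and the second from 0.0156 to 0.204. DUSP7 read 545.7 against 518.1 and 640.1 in its brighter probe set, so that the scrambled value lay between the siRNA values. Its log2 difference was 0.072 ± 0.32 (adjusted p = 0.931), and -0.098 with arrays centred and -0.11 under quantile normalization. Whether DUSP6 differed from DUSP7 was not tested. The dimmer DUSP7 probe set, which did not pass the filter, read 187.3 against 150.2 and 34.2.

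DUSP14, the atypical member, read 8473 against 6659 and 8303, or 78.6% and 97.99% of the scrambled signal, a log2 difference of -0.19 ± 0.22 (adjusted p = 0.699). Both values were below the scrambled one, but siRNA array 2 by only 0.029 on the log2 scale.

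**Figure D3:**
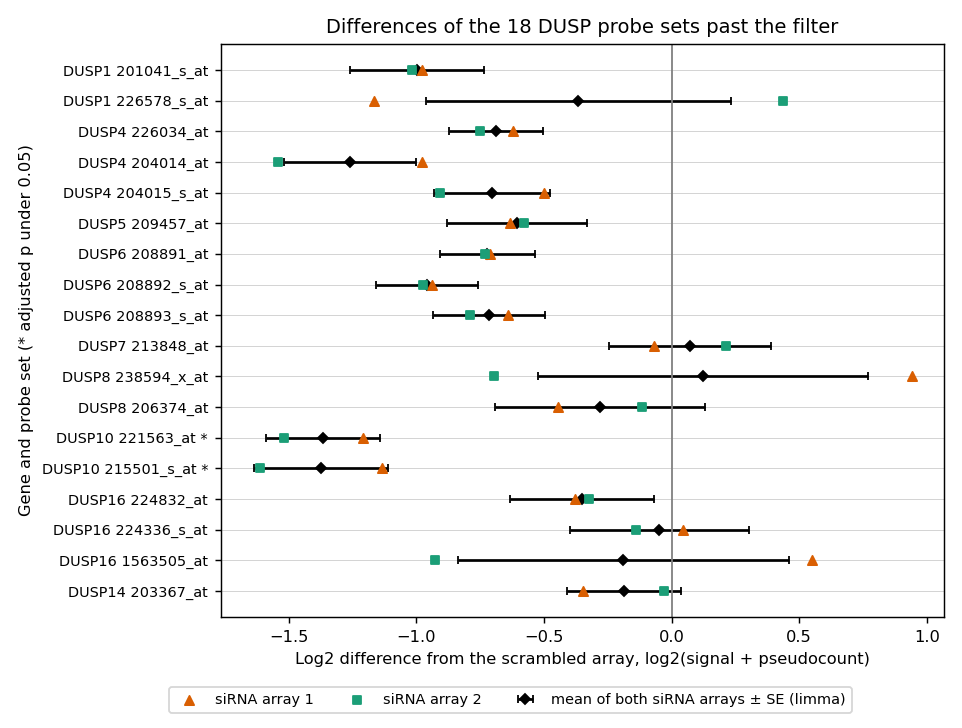
Log2 difference from the scrambled array (x axis) for the 18 tested DUSP probe sets (y axis) on each siRNA array, with the mean and its SE from limma; an asterisk marks an adjusted p under 0.05. The 2 DUSP10 probe sets sit lowest, at -1.36 and -1.38, and the arrays lie far apart in 1 probe set each of DUSP1, DUSP8 and DUSP16.

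Counted over the tested probe sets, 13 of 18 DUSP probe sets were lower on both siRNA arrays than on the scrambled array and 0 were higher on both, where 30.9% and 46.4% of all probe sets were. By gene it was 7 of 9 lower on both and 0 higher, against 32.5% and 46.7% of the 12386 genes tested. The median log2 difference over the 9 DUSP genes was -0.61 (-0.62 on siRNA array 1 and -0.69 on siRNA array 2), and 0.097 over all genes. By brightness, all 11 DUSP probe sets with a mean above the 75th percentile were lower on both siRNA arrays, against 38.5% of all probe sets that bright, and 2 of the 7 dimmer tested ones were. The siRNA arrays differed from each other at least 2-fold in 3 of the 18, those of DUSP1, DUSP8 and DUSP16 named above, and in 3.96% of all probe sets. Including probe sets that did not pass the filter it was 5 of 22, all with a scrambled signal under 1000.

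The scale of the arrays bears on these counts. The median probe set past the filter was 0.11 higher on the siRNA arrays as deposited and 0.063 lower (-0.063) with arrays centred, and the calls over all probe sets changed from 324 higher with 247 lower to 594 higher with 934 lower. With arrays centred 7 DUSP probe sets passed, all lower, of DUSP4 (3), DUSP6 (2) and DUSP10 (2), and 15 of 18 were lower on both siRNA arrays, against 42.4% of all. Under quantile normalization 1 DUSP probe set passed, of DUSP10, and 13 of 18 were lower on both, against 37.9% of all.

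**Figure D4:**
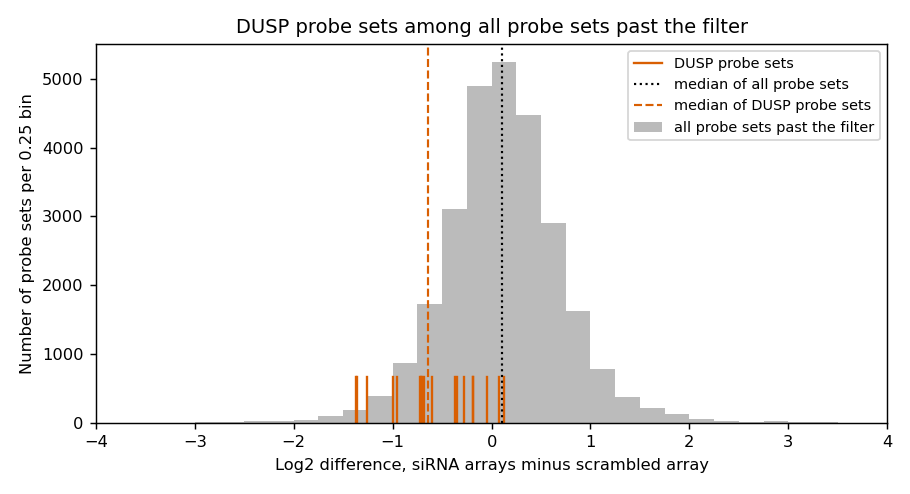
Number of probe sets (y axis) by log2 difference, siRNA arrays minus scrambled array (x axis), for all 27306 probe sets past the filter (grey), with the 18 DUSP probe sets as orange ticks. The median DUSP probe set lies at -0.65 and the median of all probe sets at 0.11.

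The remaining dual-specificity phosphatases, from DUSP3 to the slingshot phosphatases, went both ways. Of 19 listed genes 14 were measured and 0 passed limma's threshold, with 1 higher and 1 lower at an unadjusted p under 0.05, where 14% and 8.92% of all genes were. As many were lower on both siRNA arrays (6) as were higher on both (6), against 32.5% and 46.7% of all genes. The median log2 difference of the 14 was -0.084. STYXL1, a catalytically inactive relative, had the lowest p of them, at 3630 against 2219 and 1673 (log2 difference -0.90 ± 0.27, adjusted p = 0.126). STYX, another inactive relative, read 855.8 against 1399 and 1376 (adjusted p = 0.216). Other STYX probe sets past the filter differed by -0.29 and 0.32, and the mean over its probe sets by 0.23 (adjusted p = 0.697). DUSP22, a phosphatase that acts in the JNK pathway, read 1202 against 1819 and 1776 (adjusted p = 0.269). PTPRR, a tyrosine phosphatase that binds MAPKs and the 1 measured of 3 of its kind, read 844.0 against 605.9 and 660.1 (adjusted p = 0.507).

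The kinases that these phosphatases act on did not pass either. In the ERK cascade 0 of 9 measured genes (of 15 listed) passed limma's threshold, 2 were lower and 1 higher at an unadjusted p under 0.05 (8.92% and 14% of all genes), and the median was 0.13. The scaffold gene KSR1 read 340.6 against 729.0 and 665.2 (adjusted p = 0.154), the ERK5 activator gene MAP2K5 1351 against 757.6 and 763.7 (adjusted p = 0.170), and the ERK activator gene MAP2K2 9379 against 5655 and 7206 (adjusted p = 0.239). Other probe sets of MAP2K5 and MAP2K2 past the filter differed by -0.096 to 0.23. In the JNK and p38 cascade 0 of 15 measured genes (of 19) passed, again with 2 lower and 1 higher at an unadjusted p under 0.05, and the median was 0.29. MAPK8, which encodes the DUSP10 substrate JNK1, read 3019 against 1567 and 1109, a log2 difference of -1.17 ± 0.29 (adjusted p = 0.0881). MAPKAPK2, a kinase activated by p38, read 3753 against 2041 and 1345, at -1.16 ± 0.30 (adjusted p = 0.0978). With arrays centred both passed, at adjusted p = 0.0350 and 0.0384, with ranges over the tested alternatives of 0.0350 to 0.209 and 0.0384 to 0.227. The p38 gamma gene MAPK12 read 373.6 against 578.8 and 816.4 (limma adjusted p = 0.241). Its other probe set past the filter read 91.0 against 306.9 and 424.3, a log2 difference of 1.56 (limma adjusted p = 0.102). The mean over both differed by 1.18 (limma adjusted p = 0.0900).

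In the lists of ERK output and of JNK and p38 output, 6 genes passed the threshold, all lower. The lists hold transcripts induced after MAPK activation, and also feedback regulators such as LZTR1 and substrates such as ELK1 and ATF2. Of 16 measured ERK output and feedback genes (of 18 listed), 3 passed and were lower and 0 passed and were higher. Of all genes, 2.64% passed in either direction and 1.14% passed and were lower. The AP-1 gene FOSL1 fell from 13168 to 3179 and 2387 (log2 difference -2.24 ± 0.25, adjusted p = 0.0183), MYC from 30693 to 13453 and 12444 (-1.24 ± 0.18, adjusted p = 0.0286), and the immediate-early AP-1 gene FOS from 7493 to 3455 and 3250 (-1.15 ± 0.22, adjusted p = 0.0493). Of the 16, 10 were lower on both siRNA arrays and 3 higher on both, against 32.5% and 46.7% of all genes. The median was -0.49. At an unadjusted limma p under 0.05, 8 were lower and 0 higher, where 8.92% and 14% of all genes were. Measured JNK and p38 output genes numbered 11 (of 12). Of these, 8 were lower on both siRNA arrays and 1 higher on both, against 32.5% and 46.7% of all genes. The median was -0.46, which was -0.15 on siRNA array 1 and -0.61 on siRNA array 2. At an unadjusted limma p under 0.05, 4 were lower and 1 higher, where 8.92% and 14% of all genes were. Past the adjusted threshold, 0 were higher and 3 were lower. These were GADD45B (3845 against 1341 and 932.5, adjusted p = 0.0397) and GADD45A (30111 against 12014 and 10656, adjusted p = 0.0255), stress sensors that bind kinases of the p38 route, and MEF2C, whose protein p38 phosphorylates (15654 against 5479 and 5384, adjusted p = 0.0245). Other probe sets of GADD45B and MEF2C past the filter differed by -1.64 to -0.73 without passing. All 6 calls were lost without the filter, above the 75th percentile and without the trend, FOS passed in 2 of its 9 tested alternatives, and the list members were chosen with results of these data known.

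**Figure D5:**
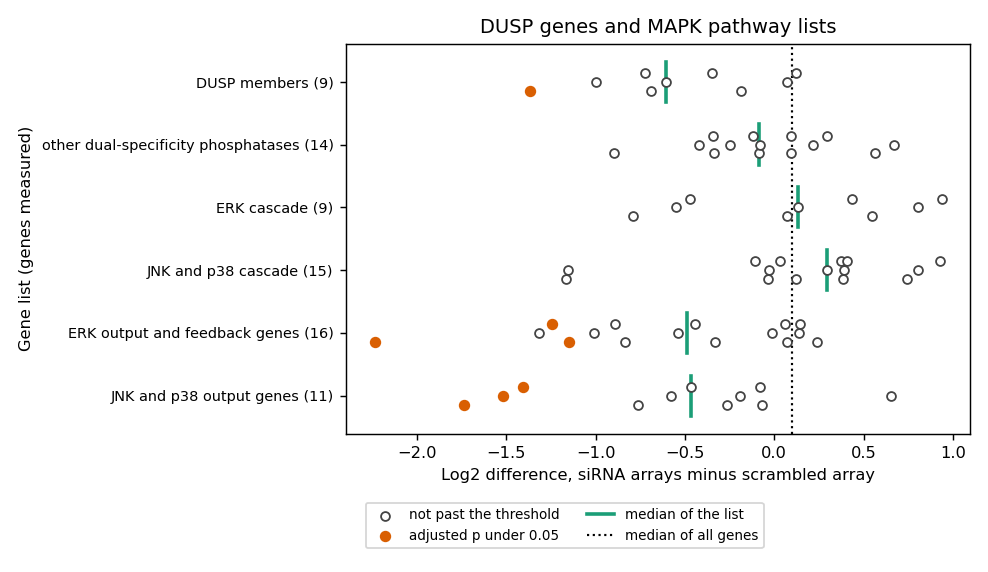
Log2 difference, siRNA arrays minus scrambled array (x axis), of each measured gene in 6 lists (y axis, number of genes measured in brackets), with filled points past the threshold. DUSP10 is the filled point among the DUSP members, and list medians run from -0.61 for the DUSP members to 0.29 for the JNK and p38 cascade, beside 0.097 over all genes.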

How the data were processed

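Per the labels, total RNA from stably transfected SK-Mel-28 cells was biotin-labelled and hybridised to 3 Affymetrix Human Genome U133 Plus 2.0 arrays (1 scrambled, 2 siRNA). The authors deposited 1 intensity per probe set and array on a linear scale. Per the submitters' processing notes these came from GCOS 1.3, with other settings not given in the sources used here. On each array the mean after trimming 2% at each end was near 1000 (999.1 to 999.7), so the arrays had been scaled before deposit. There were 0 unused value columns.

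After removal of 62 control probe sets, 54613 of 54675 were kept, of which the platform annotation names 1 gene for 41091, several for 1801 and none for 11721. Signals were analysed as log2(signal + 47.4), the pseudocount being their 25th percentile. Probe sets with a mean above the median (7.74) were compared by limma 3.58.1 in R 4.3.3 (lmFit, eBayes with trend, two-sided, Benjamini-Hochberg at 0.05 over 27306 probe sets). The fit has 1 residual degree of freedom, moderation adds 6.36, and the scrambled array, being alone, is taken to vary as the siRNA arrays do. Errors are SE from this model. For a gene, the probe set of highest mean was used. Lower bounds raise signals to 97.2, the highest trp control signal. The text names the DUSP genes, MELTF, and in each pathway list the genes past the threshold or, where fewer than 3 passed, those of lowest p up to 3. The members and lists were chosen with earlier results of these data known. Alternatives covered the scaling, pseudocount, filter, moderation, choice of probe sets and each siRNA array left out.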

Additional observations from a re-analysis of the deposited data

Results flagged for a closer look

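Data outside the comparison gave 1 signal: controls for ribosomal RNA read 4.01 times as high on siRNA array 1 as with the scrambled hairpin (median of 3 probe sets). On siRNA array 2, where the ratio was 0.963, the brighter DUSP10 probe set stood at 34.7% of its scrambled signal, the brightest of DUSP4 at 59.3%, of DUSP6 at 60.1% and of DUSP1 at 48.2%. Those of DUSP5, DUSP8, DUSP16, DUSP14 and DUSP7 stood at 65.8%, 54.7%, 79.0%, 97.99% and 117% there. Whether the ribosomal RNA signal bears on the DUSP values was not tested.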

How the results depend on the processing

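The 2 calls among DUSP probe sets became 7 with arrays centred on their medians (on the log2 scale), 1 with quantile normalization, a pseudocount of 100, robust moderation or only probe sets without a mark of shared probes, and 0 by limma without a filter, with a 75th percentile filter or without the trend (10, 9 and 8 at an unadjusted p under 0.05). DUSP genes called were 1 as reported, 3 with arrays centred and 0 in those last 3 settings. Over all probe sets the 571 calls became 1528 with arrays centred, 360 with quantile normalization, 309 with only unshared probe sets, 1 without a filter, 9 with the 75th percentile filter and 1 without the trend. Pathway list genes called went from 6 to 11 with arrays centred, 2 with unshared probe sets and 0 by limma without a filter, with the 75th percentile filter or without the trend (21, 18 and 16 at an unadjusted p under 0.05). No share over all probe sets or genes was taken for these unadjusted counts, so they cannot be read against a background. DUSP probe sets at least 2-fold lower on both siRNA arrays went from 2 to 5 with arrays centred and 1 with unshared probe sets. They were 3 with quantile normalization, with a pseudocount of 16 or without the filter. With 1 siRNA array left out, 3 to 4 were at least 2-fold lower on the remaining siRNA array alone, which is a looser rule. The median over DUSP genes, -0.61, was -0.77 with arrays centred, -0.70 with the 75th percentile filter, -0.48 with unshared probe sets and -0.69 to -0.62 with 1 siRNA array left out. Only DUSP7 (-0.098 centred, -0.11 quantile) and DUSP8 (-0.047 centred, -0.095 quantile, -0.079 as the mean of its probe sets) turned sign among the named genes in tested alternatives. The stricter and looser filters change how many probe sets are tested, and why the calls changed in any of these settings was not tested. Leaving out 1 siRNA array leaves no residual degree of freedom, so those are values without a test, and the scrambled array could not be left out. No paired analysis was possible because the scrambled group has 1 array. Dim probe sets, near the bacterial control signals of 7.0 to 97.2, limit what can be said of DUSP2 and of the dimmest probe sets of DUSP1, DUSP7 and DUSP16.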
